A study of Mus musculus with 11 samples.

Results

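The genes described here encode the RNA cytosine methylation machinery of mouse embryonic stem cells (ESCs). They were chosen by symbol: the methyltransferases Nsun2, Nsun3, Nsun4, Nsun5, Nsun6, Nsun7, Nop2 and Trdmt1, the reader Ybx1 and the dioxygenase Alkbh1, which makes 10 of the 23284 genes listed in each of 11 RNA-seq libraries. WT ESCs were sequenced as polyA RNA (3 libraries), and WT ESCs and ESCs with a triple knockout of Tet1, Tet2 and Tet3 (TKO) were sequenced as ribodepleted total RNA, non-treated (0 h) or after 4 h with 10 µg/ml α-amanitin, which blocks RNA polymerase II (2 libraries per group). All cells were grown on gelatin with leukemia inhibitory factor, the TKO line had been made earlier, and the number of clones behind it is not given in the sources used here. The treatment notes name water as the vehicle of the control cells. The labels do not say whether replicates came from separate cultures, so p-values measure the spread between these libraries, which may be technical.

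In RNA, 5-methylcytosine (m5C) is written by the NSUN family and by Trdmt1, and some of these enzymes share a class of RNA. Proteins such as Ybx1 bind the methylated transcripts. Tet dioxygenases oxidise m5C to 5-hydroxymethylcytosine, so the methyltransferases supply the substrate of that reaction. Alkbh1 belongs to another dioxygenase family and oxidises m5C in the anticodon of mitochondrial methionine tRNA, the base that Nsun3 methylates. The comparison of WT with TKO asked whether the mRNAs of this machinery differ when Tet enzymes are lost, and the α-amanitin series asked how their share of the transcriptome moves once transcription is inhibited.

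The 3 members that passed the test between genotypes at 0 h, Nsun2, Alkbh1 and Trdmt1, are introduced by their promoters. The aim was to show what these promoters have in common. Each runs 5′ to 3′ from 250 bases before to 50 bases after the RefSeq start (GRCm38.p6 table), and each matched the NCBIM37 genome once, at chr13:69750644-69750943 on the plus strand for Nsun2, at chr12:88784740-88785039 on the minus strand for Alkbh1 and at chr2:13466242-13466541 on the minus strand for Trdmt1. Capitals mark the core CGGAAG of the binding motif of ETS transcription factors, searched on both strands (it can overlap the GC box named below at CGG).
Nsun2: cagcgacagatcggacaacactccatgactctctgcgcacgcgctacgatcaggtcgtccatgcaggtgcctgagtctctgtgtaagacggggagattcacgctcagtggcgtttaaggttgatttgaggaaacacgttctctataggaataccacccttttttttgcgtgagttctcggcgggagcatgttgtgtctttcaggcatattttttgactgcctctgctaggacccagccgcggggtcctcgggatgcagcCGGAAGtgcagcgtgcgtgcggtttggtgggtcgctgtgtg
Alkbh1: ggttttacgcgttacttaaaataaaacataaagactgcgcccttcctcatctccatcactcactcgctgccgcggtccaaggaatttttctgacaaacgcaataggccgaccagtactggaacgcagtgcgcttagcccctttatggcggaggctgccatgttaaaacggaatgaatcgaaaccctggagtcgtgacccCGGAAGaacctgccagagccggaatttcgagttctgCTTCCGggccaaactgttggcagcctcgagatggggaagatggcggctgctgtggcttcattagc
Trdmt1: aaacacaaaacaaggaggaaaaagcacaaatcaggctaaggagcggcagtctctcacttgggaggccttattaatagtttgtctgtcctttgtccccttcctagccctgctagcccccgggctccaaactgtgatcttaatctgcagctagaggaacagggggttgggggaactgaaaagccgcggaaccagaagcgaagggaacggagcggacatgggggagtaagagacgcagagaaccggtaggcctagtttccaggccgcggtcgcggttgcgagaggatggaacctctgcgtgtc
The ETS core was found in 16.9% of 32851 RefSeq promoters of the same length. The Nsun2 promoter held 1 match and the Alkbh1 promoter 2 matches, and the Trdmt1 promoter held none. None of the 3 contained the E-box CACGTG, the CCAAT box, the GC box GGGCGG or TATAAA, which were present in 7.15%, 37.4%, 35.7% and 13.6% of all promoters. CpG dinucleotides numbered 22 in the Nsun2 promoter, 20 in that of Alkbh1 and 15 in that of Trdmt1, against a median of 7 over all promoters. None of the 5 motifs was thus shared by all 3 windows. Other members had 35 CpG dinucleotides (Nop2), 32 (Ybx1), 23 (Nsun3), 21 and 11 (Nsun6), 19 and 16 (Nsun4) and 7 (Nsun7). The ETS core was matched 3 times in the Nop2 promoter and 1 time in that of Nsun3. It also had 1 match at 1 RefSeq start of Nsun6, and none for Ybx1, Nsun4 or Nsun7. Neither trait set the 3 genes that passed apart from the other members. This split rests on the limit of the test, as all 9 tested members had log2 changes below 0 in TKO at 0 h. RefSeq promoters were found for 9 of the 10 members, all except Nsun5.

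The genes lie on 7 chromosomes of NCBIM37, and all are protein coding. Nsun2 spans chromosome 13 from 69672624 to 69774658 on the plus strand, Nop2 chromosome 6 from 125081901 to 125094771 on the plus strand, Ybx1 chromosome 4 from 118950586 to 118967209 on the minus strand and Alkbh1 chromosome 12 from 88767119 to 88784789 on the minus strand. These spans and the overlaps below come from GENCODE genes, whereas the study used RefSeq genes, so they may differ for the genes as counted. The RefSeq start of Nsun2 used above lies inside the span given here. In the GENCODE annotation, 21.2% of the exonic bases of Nsun5 (chromosome 5, 135845823 to 135852675, plus strand) overlap Pom121 on the opposite strand. Of those of Nsun2, 8.16% overlap Gm17108 on the opposite strand, and 4.01% of those of Alkbh1 overlap 2700073G19Rik on the same strand. The strand setting of the counting is not given in the sources used here, so reads from these overlaps are uncertain. Ybx1 has near-identical processed copies elsewhere in the genome, between which reads may have been split.

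Reads recovered from the TPM steps numbered 25507874 to 29781366 per ribodepleted library and 72639837 to 82129168 per polyA library. The genotype labels were checked with the targeted genes: Tet1 lay at 123 to 148 TPM in WT and 32.3 to 32.8 TPM in TKO at 0 h, and Tet2 at 47.7 to 57.2 TPM and 7.79 to 8.32 TPM, whereas Tet3 lay at 1.46 to 1.47 TPM in WT and at most at 1.64 TPM in TKO at 0 h. All 8 ESC markers examined were above 1 TPM in every group, with a summed level of 4288 to 4517 TPM in the ribodepleted libraries. The 6 fibroblast markers summed to 8.17 to 8.46 TPM in WT at 0 h and 12.6 to 13.3 TPM in TKO at 0 h, with 4 of 6 above 1 TPM on average in both and Lum at 0 in WT at 0 h; their part in the genotype differences was not tested. RNA was measured in bulk, so fewer cells of a type and less RNA per cell cannot be told apart.

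The levels of the members spanned a wide range, in TPM, a length-corrected share of each library's transcripts. Ybx1, a cold-shock domain protein, was the most abundant, at 775 and 789.7 TPM in the WT libraries at 0 h. Nsun2, which methylates tRNAs and mRNAs, followed at 324 and 333 TPM. Nop2, the nucleolar enzyme that methylates large-subunit ribosomal RNA, stood at 232 and 233 TPM. These 3 genes were far above the rest in every group.

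Alkbh1 lay at 58.2 and 64.5 TPM in WT at 0 h. Nsun5, which also methylates large-subunit ribosomal RNA, lay at 30.0 and 33.0 TPM, and Nsun4, which methylates mitochondrial small-subunit ribosomal RNA, at 15.1 and 15.2 TPM. Trdmt1, a tRNA methyltransferase with the fold of DNA methyltransferases, was at 7.80 and 8.59 TPM. Nsun3, the mitochondrial tRNA enzyme, was at 5.77 and 6.91 TPM and Nsun6, which acts on tRNAs and mRNAs, at 5.73 and 6.08 TPM. Libraries of neighbouring genes in this order did not overlap, except those of Nsun3 and Nsun6 in WT at 0 h, WT at 4 h and TKO at 0 h. The order of the first 7 genes, from Ybx1 to Trdmt1, was the same in all 5 groups. Nsun3 rested on 71 to 130 reads per ribodepleted library, and counting error alone gave it a coefficient of variation of up to 11.9%, against 0.821% for Nsun2.

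Nsun7, a family member known for its role in sperm motility, was not detectable above the counting floor in most libraries. It had 0 to 4 reads per ribodepleted library and 0 to 1 read per polyA library. A floor of 3 reads corresponds to 0.0784 to 0.0900 TPM in the ribodepleted libraries, and the 1 library above it, WT at 4 h replicate 1, was at 0.105 TPM. Nsun7 did not reach the mean of 1 TPM needed for testing, so 9 of the 10 members were tested. All of these 9 were above that limit in each of the 5 groups.

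**Figure D1:**
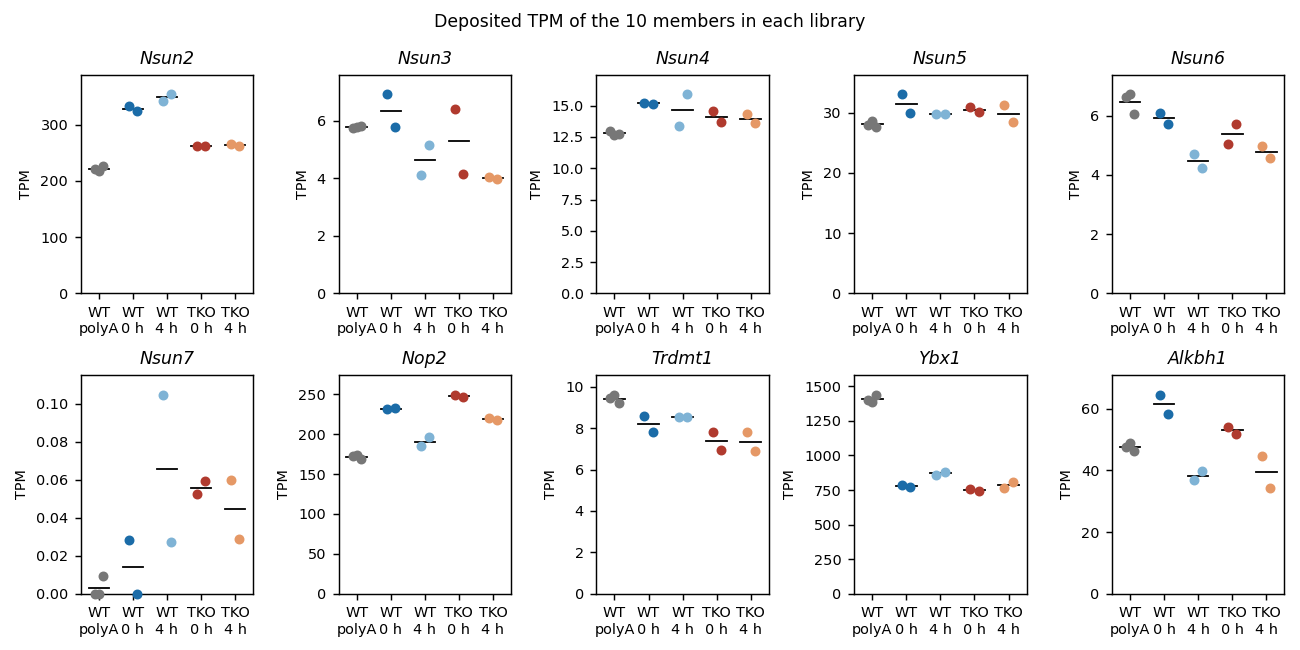
Deposited TPM (y axis, linear, from 0) of each member in the 11 libraries, with 1 panel per gene. Points are libraries, lines are group means, and the x axis gives the group (WT polyA n = 3, the others n = 2). Nsun2 lies lower in the TKO than in the WT ribodepleted libraries, Ybx1 is highest in polyA RNA, and Nsun7 stays at or below 0.105 TPM.

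Among the 8 methyltransferases, Nsun2 and Nop2 together held most of the summed TPM. Nsun2 accounted for 52.2% and 52.5% of that sum in WT at 0 h and for 45.5% and 46.1% in TKO at 0 h. At 4 h its share was 57.7% and 58.2% in WT and 48.4% and 48.9% in TKO. The share was thus lower in TKO than in WT at each time and higher at 4 h than at 0 h in each genotype. None of these 4 groups overlapped, but the share was not tested. With 2 libraries per group, many single genes did not overlap either. Of all tested genes, 42.6% were lower in TKO without overlap at 0 h and 39.9% at 4 h. Between 0 h and 4 h, 40.5% were higher without overlap in WT and 32.7% in TKO. The other 6 methyltransferases together took between 10.3% and 11.4% of the sum in the ribodepleted libraries.

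TKO and WT ESCs were first compared at 0 h. Nsun2, Alkbh1 and Trdmt1 were lower in TKO, and no member was higher. The largest of these differences, that of Nsun2, was 1.34-fold, and none exceeded the 1.5-fold limit. TPM was scaled by size factors from the median of ratios (scaled TPM) and tested with limma on the log2(scaled TPM + 1) scale. Changes of genes with low values come out too small on that scale. A gene passed when its Benjamini-Hochberg adjusted p over all 12467 tested genes was under 0.05, and was called when it also changed by more than 1.5-fold.

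Nsun2 stood at 323 and 327 scaled TPM in WT and at 244 and 242 scaled TPM in TKO. The TKO libraries lay below both WT libraries, with a spread of a few TPM within each group. The log2 change was -0.42 (SE 0.044, limma adjusted p = 7.5e-05). Alkbh1 stood at 62.6 and 58.7 scaled TPM in WT and at 50.2 and 47.9 scaled TPM in TKO. Its groups did not overlap either, and the log2 change was -0.30 (SE 0.085, limma adjusted p = 0.0147). Trdmt1 lay at 8.33 and 7.86 scaled TPM in WT and at 7.28 and 6.42 scaled TPM in TKO, a change of -0.21 on the log2 scale (SE 0.079, limma adjusted p = 0.0442).

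The remaining 6 tested members did not pass. Nsun3 had a log2 change of -0.32 with a 95% interval of -0.69 to 0.044, its TKO libraries being 5.95 and 3.83 scaled TPM and overlapping those of WT. Nsun6, Nsun4, Ybx1 and Nsun5 had log2 changes of -0.20, -0.19, -0.16 and -0.14 with limma adjusted p between 0.0518 and 0.0872, and their TKO libraries lay below those of WT without overlap. With 2 libraries per group this was common, as 42.6% of all tested genes were lower without overlap at 0 h and 39.1% higher. Nop2 was the exception, with 225 and 235 scaled TPM in WT and 232 and 227 in TKO, a log2 change of -0.00093 (95% interval -0.11 to 0.10, limma adjusted p = 0.988). The abundant nucleolar enzyme and the abundant tRNA enzyme thus gave unlike values between genotypes.

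Of the 9 members, 0 passed higher and 3 passed lower at 0 h. Over all tested genes 27.8% passed higher and 28.2% passed lower, so the count of lower members was near that background. No member was called in either direction, where 10.5% of all genes were called higher and 5.43% lower. Voom in limma, run on the recovered reads, also called 0 members, and 6 members had an unadjusted p under 0.05, with 0 of them past 1.5-fold. The median log2 change was -0.20 over the members and -0.019 over all tested genes, and 8 of 9 members lay below that all-gene median.

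Markers of cell state differed between the genotypes beside these values. Of the 8 ESC markers, 2 passed higher and 5 lower in TKO at 0 h. At 4 h, 0 passed higher and 4 lower (3 and 4 on deposited TPM). The list medians were -0.34 and -0.33. All-gene shares were 27.8% higher and 28.2% lower at 0 h, and 29.1% and 30.3% at 4 h. The pluripotency factors Zfp42, Klf4 and Esrrb were called lower at both times, with log2 changes of -2.08, -0.98 and -0.74 at 0 h. The 2 ESC markers that passed higher at 0 h were Dppa5a at 0.22 and Tdgf1 at 0.13. Nanog was at 0.16 and did not pass. Among markers of other lineages, Olig2 was lower by -4.19 at 0 h, Gata4 was lower by -0.61 and Nes was higher by 0.77, and all 3 passed. Dab2, the other tested marker of primitive endoderm, passed higher at 0.47. The fibroblast markers Col1a2 and Col1a1 also passed higher, at 1.18 and 0.25. The remaining tested markers of these lineages did not pass at 0 h. Summed markers of neurectoderm lay at 38.8 to 41.4 TPM in WT and 35.7 to 38.1 TPM in TKO at 0 h, and those of primitive endoderm at 5.04 to 5.26 TPM and 3.98 to 4.88 TPM. Several of these markers also differed between polyA and ribodepleted libraries of WT cells, where RNA selection and experiment change together. There, polyA minus ribodepleted, the log2 differences were -4.31 for Olig2, -1.92 for Nes, -1.65 for Zfp42 and -0.31 for Gata4. They were 0.61 for Klf4 and 0.32 for Esrrb. Whether the marker differences between genotypes had a part in the members' values was not tested.

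Nsun2 passed under each other scaling, pseudocount, filter, fit and left-out library, although it was never past the 1.5-fold limit. Alkbh1 and Trdmt1 no longer passed on deposited TPM without size factors (limma adjusted p = 0.136 and 0.287), without WT 0 h replicate 1 (0.0790 and 0.169) or without TKO 0 h replicate 2 (0.0756 and 0.275), settings in which only Nsun2 passed. The result of Trdmt1 was close to the limit. It also did not pass under upper-quartile scaling (limma adjusted p = 0.0918), with no filter on low values (0.0767), with a filter at a mean of 5 (0.0672), in the fit of the compared libraries alone (0.0722) and without WT 0 h replicate 2 (0.0683), and so passed in 6 of 11 alternatives and in 1 of the 4 fits that left out a library. After quantile normalisation 7 members passed, 6 lower and Nop2 higher (log2 change 0.11, limma adjusted p = 0.0253), and with voom on recovered reads 6 passed, all lower.

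At 4 h of α-amanitin the genotypes differed in the same direction. Nsun2, Trdmt1, Ybx1, Nsun4 and Nsun5 were lower in TKO, and no member was higher. The size of the difference in Nsun2 was 1.47-fold, and again none exceeded 1.5-fold.

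Nsun2 stood at 385 and 385 scaled TPM in WT and at 255 and 268 scaled TPM in TKO, a change of -0.56 on the log2 scale (SE 0.044, limma adjusted p = 1.48e-05). Trdmt1 stood at 9.61 and 9.30 scaled TPM in WT and at 7.50 and 7.02 in TKO, a change of -0.34 on the log2 scale (SE 0.079, limma adjusted p = 0.00529). Ybx1 stood at 965 and 958 scaled TPM in WT and at 737 and 821 in TKO, a change of -0.31 on the log2 scale (SE 0.060, limma adjusted p = 0.00238). In all 3 genes both TKO libraries were below both WT libraries, as in 39.9% of all tested genes, while 38.4% were higher without overlap.

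Nsun4 had a change of -0.21 on the log2 scale (SE 0.074, limma adjusted p = 0.0369) and Nsun5 one of -0.15 (SE 0.053, limma adjusted p = 0.0318), the latter with the exonic overlap with Pom121 noted above. Alkbh1, which differed at 0 h, stood at 41.3 and 43.3 scaled TPM in WT and at 42.8 and 35.1 in TKO at 4 h. Its groups overlapped, the log2 change was -0.12 (95% interval -0.32 to 0.069), and it did not pass (limma adjusted p = 0.238). The Alkbh1 value turned on a single library: without TKO 4 h replicate 1 the log2 change was -0.26 (limma adjusted p = 0.00862), and without TKO 4 h replicate 2 it was 0.020 (limma adjusted p = 0.796). Nop2 did not pass, with a log2 change of 0.041, nor did Nsun3 with -0.30 and Nsun6 with -0.052.

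Of the 9 members, 0 passed higher and 5 passed lower at 4 h, beside 29.1% higher and 30.3% lower over all tested genes. None was called, where 11.0% of all genes were called higher and 5.82% lower, nor was any with voom. An unadjusted p under 0.05 was found for 5 members, of which 0 were past 1.5-fold. The median log2 change was -0.21 over the members and -0.0051 over all tested genes. Size factors mattered for these values: on deposited TPM the all-gene median moved to 0.14, and the share of passed genes that were higher went from 49.0% to 70.9%, with 59.5% under upper-quartile scaling. Relative to the all-gene median, Nsun2 was at -0.55 with size factors, -0.54 on deposited TPM and -0.30 after quantile normalisation, and 8 of 9 members were below that median under each of the 4 scalings. At 0 h the share of passed genes that were higher was 49.7% with size factors and 65.5% on deposited TPM.

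Nsun2 again passed under each other scaling, pseudocount, filter, fit and left-out library, and without TKO 4 h replicate 2 its log2 change of -0.59 was just past the 1.5-fold limit. On deposited TPM 3 members passed, Nsun2 and Ybx1 lower and Nop2 higher (log2 change 0.20, limma adjusted p = 0.00294), and after quantile normalisation Ybx1 no longer passed (adjusted p = 0.338). Nsun4 and Nsun5 passed in 6 and 7 of 11 alternatives, and each passed in 1 of the 4 fits that left out a library, with adjusted p up to 0.230 for Nsun4 (without WT 4 h replicate 2) and 0.1405 for Nsun5 (without WT 4 h replicate 1).

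**Figure D2:**
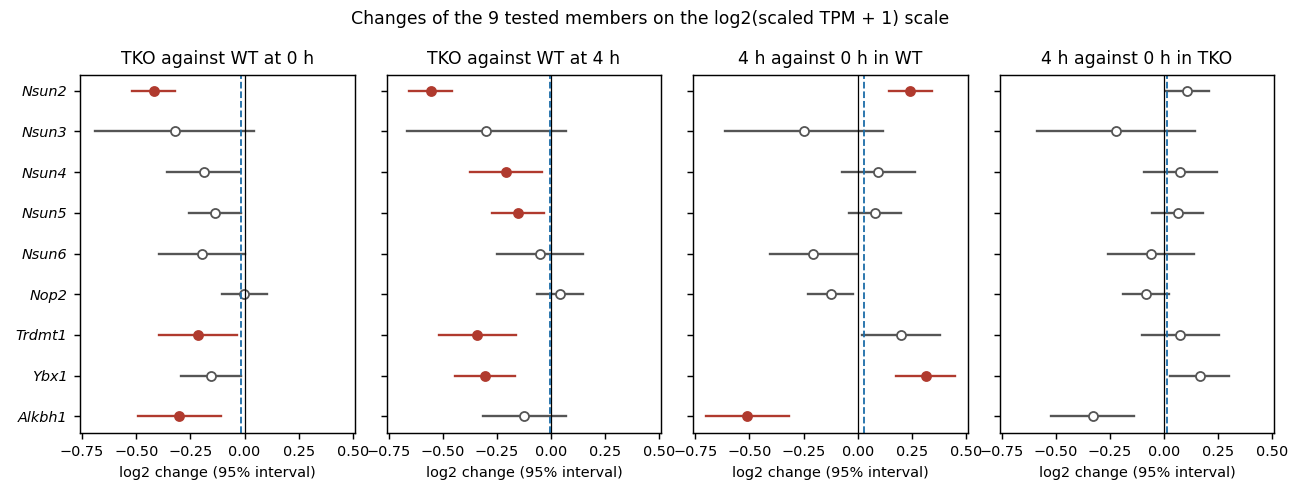
Log2 change (x axis, on the log2(scaled TPM + 1) scale) of the 9 tested members in 4 comparisons of the ribodepleted libraries, with 95% intervals from limma (n = 2 libraries per group). Filled red points passed, open points did not, and the dashed line is the median of all tested genes. Nsun2 is at -0.42 and -0.56 in the genotype comparisons, and Alkbh1 at -0.51 after α-amanitin in WT.

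In WT cells, the scaled TPM of Nsun2 and Ybx1 was higher after 4 h of α-amanitin, and that of Alkbh1 was lower. TPM is relative within a library, so a loss common to all transcripts cannot be seen, and a rise means a loss smaller than that of the typical transcript or none. Alkbh1 fell from 62.6 and 58.7 scaled TPM to 41.3 and 43.3, a change of 1.42-fold with no overlap (log2 change -0.51, SE 0.085, limma adjusted p = 0.0062). Of all tested genes, 32.5% were lower without overlap in this comparison and 40.5% higher. Ybx1 rose from 766 and 781 scaled TPM to 965 and 958 (log2 change 0.31, SE 0.060, limma adjusted p = 0.00795). Nsun2 rose from 323 and 327 scaled TPM to 385 and 385 (log2 change 0.24, SE 0.044, limma adjusted p = 0.00714).

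Trdmt1 had a log2 change of 0.20 and Nop2 one of -0.12 (limma adjusted p = 0.0724 and 0.062), and neither passed. Nsun6 was at -0.20 and Nsun3 at -0.25, and Nsun4 and Nsun5 at 0.095 and 0.079, without passing. Of the 9 members, 2 passed higher and 1 passed lower, beside 21.9% and 15.8% of all tested genes. None was called, and over all genes 0.0882% were called higher and 2.01% lower. Voom called 0 members as well, and at an unadjusted p of 0.05 there were 6 members, of which 0 were past 1.5-fold.

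The fall of Alkbh1 passed in all 11 alternatives other than leaving out a library. Without WT 4 h replicate 1, however, none of the 9 passed (limma adjusted p between 0.0515 and 0.0542 for the 3 genes), in a fit in which 378 genes passed in place of 4695; without WT 0 h replicate 1, Ybx1 did not (0.0508). The rises depended on the scaling. On deposited TPM the all-gene median moved from 0.028 to -0.11 and the share of passed genes that were higher from 58.1% to 11.2%, with 47.1% under upper-quartile scaling; Nsun2 was then at 0.084 (limma adjusted p = 0.121), Ybx1 at 0.15 (0.0185), and Nop2 and Nsun6 passed lower. After quantile normalisation neither Nsun2 (0.064, adjusted p = 0.156) nor Ybx1 (0.096, adjusted p = 0.0694) passed, and Trdmt1 passed higher and Nop2 lower.

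In TKO cells the same treatment gave values closer to 0 in each of the 9 members, none of which passed. Alkbh1 went from 50.2 and 47.9 scaled TPM to 42.8 and 35.1, a log2 change of -0.33 (95% interval -0.52 to -0.14, limma adjusted p = 0.116). Ybx1 was at 0.16 and Nsun2 at 0.11, with limma adjusted p of 0.157 and 0.184. Of the 9 members 0 passed in either direction, and over all genes the shares were 0.00% higher and 0.265% lower, so few genes passed at all. At an unadjusted p of 0.05 there were 3 members, namely Alkbh1, Nsun2 and Ybx1, and voom on recovered reads gave 1, Alkbh1 (log2 change -0.34, limma adjusted p = 0.0207).

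The TKO libraries at 4 h were unlike each other in these genes. Alkbh1 lay at 42.8 scaled TPM in replicate 1 and 35.1 in replicate 2, and Ybx1 at 737 and 821. Without replicate 1, the log2 changes were -0.47 for Alkbh1, 0.24 for Ybx1 and 0.15 for Nsun2. Over the 4 fits that left out 1 library, they ran from -0.47 to -0.19 for Alkbh1. They ran from 0.086 to 0.24 for Ybx1 and from 0.070 to 0.15 for Nsun2. A fit with 1 library in a group holds no spread of that group, so these are given as sizes only.

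The response to α-amanitin was not found to differ between genotypes in any member. The interaction, the TKO change minus the WT change, was -0.14 for Nsun2 (95% interval -0.28 to 0.0038), -0.15 for Ybx1 (-0.34 to 0.044) and 0.18 for Alkbh1 (-0.095 to 0.45). By limma 0 of 9 members passed, as did 0.00% of all genes in the higher and 0.00% in the lower direction, the smallest adjusted p over all genes being 0.532. At an unadjusted p of 0.05 there were 0 members, and voom passed 0. The intervals include differences as large as the WT responses themselves in every tested member except Alkbh1. Trdmt1 (-0.38 to 0.13) and Nsun3 (-0.49 to 0.54) are examples beside Nsun2 and Ybx1, so similarity was not shown.

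The ratio of Nsun2 to Nop2 within a library does not depend on scalings that divide each library by 1 factor, since that factor cancels. Quantile normalisation is not such a scaling. It was chosen after the values were seen and carries no test. The ratio was 1.44 and 1.39 in WT at 0 h and 1.05 and 1.06 in TKO at 0 h. At 4 h it was 1.85 and 1.80 in WT and 1.20 and 1.21 in TKO. The 4 groups did not overlap. In TKO the mRNAs of both enzymes were nearly equal at 0 h, whereas in WT Nsun2 exceeded Nop2. The ratio was higher at 4 h in each genotype. How often ratios of other genes separate in this way was not computed. Among single tested genes, 42.6% were lower in TKO without overlap at 0 h and 39.9% at 4 h. In the WT polyA libraries it was 1.29, 1.26 and 1.34.

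**Figure D3:**
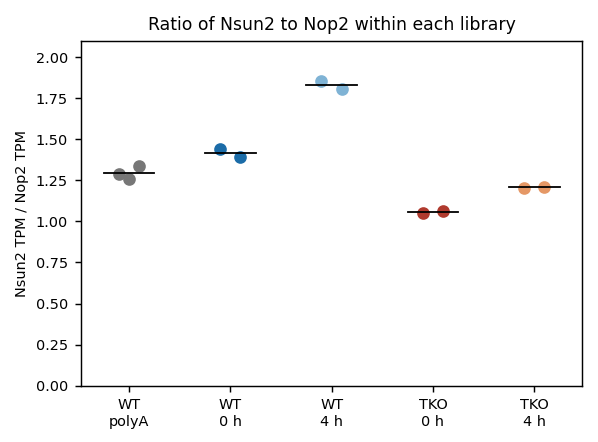
Ratio of Nsun2 TPM to Nop2 TPM (y axis, linear, from 0) within each of the 11 libraries, by group on the x axis. Points are libraries and lines are group means. The TKO libraries lie between 1.05 and 1.21 and the WT ribodepleted libraries between 1.39 and 1.85.

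PolyA and ribodepleted libraries of WT cells were compared in a fit of their own (3 against 2 libraries, 12481 genes tested). The library values given for this comparison are deposited TPM. Folds, log2 differences and adjusted p come from TPM scaled by the size factors of this fit, unless another setting is named. RNA selection, library preparation and experiment differ together between these groups and cannot be told apart. Ybx1 was higher in polyA RNA and 6 members were lower, Nsun2 by the most. Trdmt1 and Nsun6 did not pass, at log2 differences of 0.089 and 0.024.

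Ybx1 stood at 1399, 1387 and 1439.7 TPM in the polyA libraries against 789.7 and 775 TPM in the ribodepleted ones, a 1.67-fold difference (log2 difference 0.74, SE 0.045, limma adjusted p = 8.44e-07). Nsun2 stood at 222, 218 and 226 TPM against 333 and 324 TPM, and was 1.59-fold lower (log2 difference -0.67, SE 0.039, limma adjusted p = 6.66e-07). Both were called on scaled TPM. On deposited TPM without size factors the log2 difference was 0.85 for Ybx1 and -0.56 for Nsun2. That of Nsun2 was then short of the 1.5-fold limit. Nop2 stood at 172, 174 and 169 TPM against 232 and 233 TPM (log2 difference -0.54, limma adjusted p = 1.53e-06).

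Alkbh1, at 47.5, 48.9 and 46.5 TPM, was lower than in the ribodepleted libraries by a log2 difference of -0.46 (limma adjusted p = 9.72e-06). Nsun4, Nsun5 and Nsun3 followed at -0.33, -0.26 and -0.20. Nsun3 (limma adjusted p = 0.0256) passed in 5 of 10 alternatives and in 1 of 5 fits without 1 library, and did not pass with voom (0.0859), on deposited TPM (0.228), under quantile or upper-quartile scaling (0.0621 and 0.0842) or with no filter on low values (0.0575). Trdmt1 passed higher under 3 scalings other than size factors, with limma adjusted p between 0.0286 and 0.0315. Of the 9 members, 1 passed higher and 6 lower, beside 40.1% and 40.8% of all tested genes, and 1 was called higher and 1 lower, beside 18.7% and 16.4%. Most genes thus differed between the library types, and the median of the members was -0.26 against -0.0075 over all genes. The order of abundance of the members was nevertheless shared from Ybx1 to Trdmt1, as the levels above show.

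**Figure D4:**
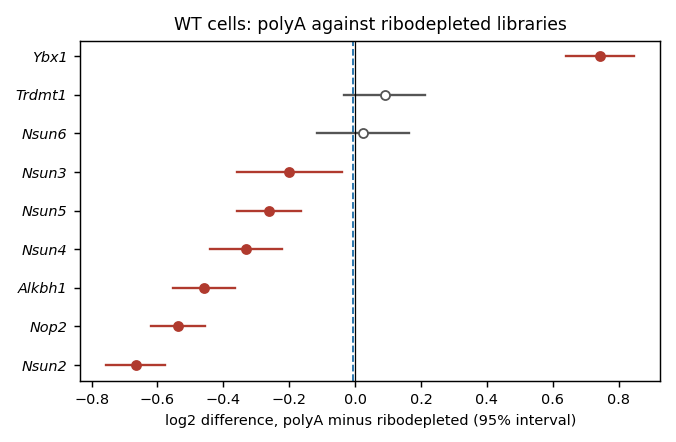
Log2 difference (x axis, polyA minus ribodepleted, on the log2(scaled TPM + 1) scale) of the 9 tested members in WT cells, with 95% intervals from limma (n = 3 and 2 libraries). Filled red points passed, open points did not, and the dashed line is the median of all tested genes. Ybx1 is at 0.74 and Nsun2 at -0.67.

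Genes that act beside the members were described by their counts. Over all tested genes, 27.8% passed higher and 28.2% lower in TKO at 0 h. At 4 h these shares were 29.1% and 30.3%. Of 10 further m5C readers and oxidases, 0 passed higher and 4 lower in TKO at 0 h and 6 lower at 4 h; the list holds Tet1 and Tet2, the targets of the knockout. Elavl1, an RNA-binding protein, had log2 changes of -0.19 and -0.37 at 0 h and 4 h (limma adjusted p = 0.00371 and 7.74e-05). Csda, the Ybx1 paralogue now named Ybx3, was at -0.10 at 0 h, where it did not pass, and was lower by -0.30 at 4 h (limma adjusted p = 0.000763). After α-amanitin in WT cells 5 of these genes passed higher and 1 lower, beside 21.9% and 15.8% of all tested genes. Csda (0.36) and Elavl1 (0.30) were among the higher ones. The split within the list depended on the scaling. It was 4 higher and 1 lower under upper-quartile scaling, 2 and 1 after quantile normalisation and 1 and 1 on deposited TPM. The median of the list between genotypes was -0.094 at 0 h, and 0.0016 on deposited TPM, where 1 gene passed higher and 2 lower at 0 h and 1 higher and 4 lower at 4 h.

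In the AlkB family without Alkbh1, 0 of 8 genes passed higher and 4 lower in TKO at each time. All-gene shares were 27.8% higher and 28.2% lower at 0 h, and 29.1% and 30.3% at 4 h. Alkbh7, a mitochondrial protein, was at -0.57 and -0.50 (limma adjusted p = 0.000321 and 0.000568) at 0 h and 4 h. Alkbh8, a tRNA wobble uridine enzyme, was at -0.42 and -0.34, and Alkbh3 and Fto, RNA demethylases, at -0.29 and -0.16 at 0 h. On deposited TPM the lower count was 2 at 0 h, and at 4 h 1 gene passed in each direction.

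Around Nop2, 10 nucleolar genes of ribosomal RNA modification gave 1 higher and 5 lower in TKO at 0 h. At 4 h they gave 0 higher and 5 lower. All-gene shares were 27.8% higher and 28.2% lower at 0 h, and 29.1% and 30.3% at 4 h. Nop10 was called lower at both times (log2 change -0.64 and -0.74, limma adjusted p = 0.000113 and 4.55e-05). Dkc1, the pseudouridine synthase that Nop10 accompanies, was at -0.28 and -0.46, Emg1 at -0.39 and -0.48 and Fbl at -0.22 and -0.25. The list's median was -0.15 at 0 h and -0.10 at 4 h, and at 4 h it was 0.055 on deposited TPM and 0.022 after quantile normalisation. At 0 h, both of these scalings gave 3 genes in each direction. Nop2 itself, at -0.00093 and 0.041, was above the median of these genes at both times but within their range. Their highest values were 0.15 at 0 h and 0.045 at 4 h.

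Of 13 genes of mitochondrial RNA modification, 1 passed higher and 5 lower in TKO at 0 h. At 4 h, 3 passed higher and 4 lower. All-gene shares were 27.8% higher and 28.2% lower at 0 h, and 29.1% and 30.3% at 4 h. Mto1, of tRNA wobble modification, was at -0.50 and -0.66 (limma adjusted p = 9.83e-05 and 1.87e-05), and Trmt61b, a mitochondrial methyladenosine methyltransferase, at -0.43 and -0.42. Mrm1, which methylates mitochondrial ribosomal RNA, was higher, at 0.42 and 0.58 (limma adjusted p = 0.000559 and 8.31e-05). Mterfd2, the partner of Nsun4 now named Mterf4, was at 0.19 at 0 h, where it did not pass, and at 0.41 at 4 h (limma adjusted p = 0.00572), while Nsun4 was at -0.19 and -0.21. The median was -0.056 at 0 h and turned positive on deposited TPM (0.036); at 4 h it was -0.023, with 0.13 on deposited TPM and 0.050 under upper-quartile scaling. Of the genes of queuosine, a base modification in the anticodon of tRNAs that Trdmt1 methylates, Qtrt1 and Qtrtd1 were both lower in TKO at 0 h (-0.47 and -0.35, limma adjusted p = 0.000141 and 0.000293) and at 4 h (-0.52 and -0.26). The endonuclease Ang of the same list was too low to be tested.

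The profiles most like those of the 2 members with the largest genotype difference at 0 h were searched over the 8 ribodepleted libraries. Likeness was the root mean square difference of log2(scaled TPM + 1) after each gene was centred on its own mean. For Nsun2 the nearest genes were Mkrn1, Smarcd1 and Mpp6, at 0.019, 0.022 and 0.023, where the median over all genes was 0.30. For Nsun3, with its few reads, they were Slc2a4, Vamp2 and Dnajc22, at 0.11, 0.12 and 0.12, where the median was 0.29.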

How the data were processed

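RNA-seq of mouse ESCs was analysed in 11 libraries of 5 groups, taken from the sample titles. The deposited values are TPM per gene, which the authors computed from HTSeq counts. Per their methods, reads were filtered with AfterQC and Bowtie2 (ribosomal and transfer RNA), trimmed with Trimmomatic and mapped to mm9 and RefSeq genes by STAR; the labels give mm9 for the polyA libraries. Software versions and the strand setting are not given in the sources used here.

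TPM was divided by median-of-ratios size factors over the tested genes (mean scaled TPM above 1), and limma 3.58.1 (R 4.3.3) was run on log2(scaled TPM + 1) (eBayes with trend, two-sided). The 8 ribodepleted libraries shared 1 fit with 4 group coefficients, and 3 polyA and 2 WT ribodepleted libraries another. A gene passed at a Benjamini-Hochberg adjusted p under 0.05 and was called if it also changed by more than 1.5-fold, the limits the study used on raw counts. Whole reads were recovered from the steps of the deposited TPM for 100% of 19869 genes above 0 (relative tolerance 1e-06), up to a divisor common to a gene; they describe depth and entered voom in limma, added as an alternative after seeing the data, which passed 7399 genes at 0 h between genotypes in place of 6989. The number of libraries limits the precision, and for members with few reads so does depth. Replicates differed by more than sampling noise (chi-square over degrees of freedom at least 1.53), so none was merged.

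The other alternatives were deposited TPM without scaling, quantile and upper-quartile scaling, pseudocounts of 0.1 and 5, other filters, no variance trend, a replicate block, 2-group fits and each library left out. Members, gene lists, markers and tests were chosen with earlier results of these data known. All 10 members were named in each comparison. Of each other gene list, at most the 4 genes with the largest change among those that passed between genotypes were named. Markers were not held to that limit. The 3 nearest profiles were named for the 2 members with the largest genotype change at 0 h. Older symbols matched 6 listed genes (Csda, Mterfd2, Rg9mtd1, Ftsj2, Rnmtl1 and Qtrtd1). Markers of primitive endoderm, neurectoderm and mesoderm summed to at most 41.4 TPM in any ribodepleted library.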

Additional observations from a re-analysis of the deposited data

How the results depend on the processing

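Counts of members that passed moved with the fold limit, the scaling, the filter, the samples in the fit and the library left out, and in some comparisons with the tool. Between genotypes at 0 h, 3 members passed as reported, 1 on deposited TPM, 7 after quantile normalisation, 6 with voom on recovered reads and 0 past 1.5-fold. At 4 h, 5 passed as reported, 3 on deposited TPM, 3 under upper-quartile scaling, 3 with a filter at a mean of 5, 3 in a fit of those 4 libraries alone and 0 past 1.5-fold. For 4 h against 0 h, 3 passed in WT as reported, 5 with voom and 0 past 1.5-fold, and in TKO 0 passed as reported and 1 with voom. Between polyA and ribodepleted libraries 7 passed as reported and 2 were past 1.5-fold. Leaving out 1 library at a time gave 1 to 4 members between genotypes at 0 h, 3 to 5 at 4 h, 0 to 3 in WT after α-amanitin, 0 to 3 in TKO, 0 for the interaction and 6 to 7 for the library types. A group left with 1 library was assumed to vary like the others. Apart from the scalings and the settings that test fewer genes or use fewer samples, the cause of these moves was not tested.

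Signs turned in 18 values over the alternatives and in 16 over the left-out libraries, none of which passed as reported. Nop2 between genotypes at 0 h was at 0.095 on deposited TPM, 0.11 after quantile normalisation (which passed), 0.046 under upper-quartile scaling, 0.023 with the filter at 5 and 0.015 in the fit of its 2 groups. At 4 h, Nsun6 was at 0.078 on deposited TPM and 0.0088 under upper-quartile scaling, and Alkbh1 at 0.031 on deposited TPM. Deposited TPM also turned Nsun4 (-0.055) and Nsun5 (-0.076) in WT after α-amanitin, Nsun4 (-0.016), Nsun5 (-0.033) and Trdmt1 (-0.010) in TKO, and the interactions of Nsun4 (0.039) and Nsun5 (0.043). The interaction of Nsun3 was -0.024 after quantile normalisation, and those of Nsun4 and Nsun5 were 0.0051 and 0.0089 under upper-quartile scaling. Without 1 library, values between genotypes ran from -0.039 to 0.024 for Nop2 at 0 h, from -0.14 to 0.023 for Nsun6 and from -0.26 to 0.020 for Alkbh1 at 4 h. In TKO after α-amanitin they ran from -0.48 to 0.040 for Nsun3, from -0.13 to 0.010 for Nsun6 and from -0.0035 to 0.16 for Trdmt1. Interactions ran from -0.23 to 0.29 for Nsun3, from -0.13 to 0.064 for Nsun4 and from -0.055 to 0.023 for Nsun5.

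Same-numbered libraries correlated at -0.044 to 0.12 in their deviations from the group means, so the numbers were not taken as pairs. With the replicate number as a block, 4 members passed at 0 h (Nsun5 in addition, adjusted p = 0.0348 by limma), 5 at 4 h, 3 in WT after α-amanitin, 0 in TKO, 0 for the interaction and 7 between library types. Depth limited Nsun7 and Nsun3, as described above, and also Trdmt1 and Nsun6, whose lowest ribodepleted libraries had 243 and 294 reads, a coefficient of variation of 6.42% and 5.83% from counting alone. All members were limited by 2 libraries per group.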
